A study of Homo sapiens with 20 samples.

Results

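Thrombospondin-1 (TSP1) was added to activated JinB8 cells, and the 3 libraries with TSP1 were compared with the 3 without it. JinB8 is a CD47-deficient mutant of the Jurkat T lymphoblast line, an established human leukemia line. The libraries compared were defined by their labels, with earlier results of these data known. They are the JinB8 libraries of cells plated on immobilized antibodies to CD3 and CD28 for 1, 3 or 6 h, either with 1 µg/ml TSP1 (CD3+CD28+TSP1) or without it (CD3+CD28), 6 of the 20 libraries of the series. All 6 share the CD47-deficient background and the antibody stimulation. The other JinB8 libraries were untreated cells at 1 h and cells given TSP1 alone at 1, 3 and 6 h, and the parental Jurkat cells had the same 10 libraries. Each treatment was sequenced once per time point, so the 3 libraries of a group were 3 time points, and the labels do not name separate cultures. The p-values come from a model of all 20 libraries and therefore measure the spread between the libraries of this series only.

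CD47 is a widely expressed membrane protein of the immunoglobulin superfamily, and TSP1, a glycoprotein released by platelets and many other cells, is one of its ligands. T cells respond less to stimulation when TSP1 occupies it. TSP1 also binds other cell surface proteins, among them CD36, several integrins and LRP1, and it can activate latent TGF-beta. Antibodies to CD3 engage the T cell receptor complex and antibodies to CD28 give the costimulatory signal, which together induce immediate early genes and surface markers such as CD69. The comparison asks which transcripts responded to TSP1 in activated cells that lack CD47, with the parental line as the CD47-bearing control.

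The 6 libraries held between 16107921 and 24989562 counts, and the lowest total belonged to CD3+CD28+TSP1 at 3 h, where the others held at least 21945149. Detection was limited to 3 counts in a library, which equals 0.119 to 0.156 CPM (counts scaled to library size) and covers counting error only. All 13 T cell markers examined were detected in every library, with a summed level of 2250 to 3464 CPM. Summed markers of B cells, myeloid cells, platelets, epithelial cells and mesenchymal cells lay between 0.488 and 16.3 CPM. In bulk RNA, fewer cells of a type and less RNA per cell cannot be told apart. CD47 mRNA was still present in JinB8 cells, at 134 to 164 CPM with CD3+CD28 against 253 to 358 CPM in the Jurkat libraries of that treatment, so the mRNA level does not itself check the absence of the protein.

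No gene passed the test for an effect of TSP1 on activated JinB8 cells. Of 16327 genes tested by edgeR's quasi-likelihood test with Benjamini-Hochberg adjustment, 0 had an adjusted p below 0.05 (0%), and the smallest adjusted p was 0.459. At an unadjusted p below 0.05 there were 1770 genes, of which 853 were higher (5.22% of genes tested) and 917 were lower (5.62%) with TSP1. DESeq2 and limma voom likewise called 0 genes, with 1487 and 1459 at an unadjusted p below 0.05. Only without a filter on low counts did edgeR call many, 399 genes, of which 251 differed more than 2-fold at 3 h in the same direction. In all 3 pairs, 2261 genes were higher (13.8%) and 2991 were lower (18.3%), and the 2 groups did not overlap for 468 genes (2.87%). When the 3 h pair was left out, edgeR again called 0 genes, and 496 (3.04%) had an unadjusted p below 0.05. The median standard error of a log2 difference was 0.128.

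The 3 h pair differed from the others in size. More than a 2-fold difference in log2(CPM + 0.5) was seen for 87 genes at 1 h (0.533%), 777 at 3 h (4.76%) and 97 at 6 h (0.594%). With TSP1, 712 of the 777 were higher. Among the 10001 genes whose log2 CPM averaged 3 or more, the SD of the differences at 1, 3 and 6 h was 0.156, 0.400 and 0.162. At 3 h the CD3+CD28+TSP1 library also differed from TSP1 alone by an SD of 0.434, whereas TSP1 alone and CD3+CD28 differed by 0.180. The CD3+CD28+TSP1 library at 3 h thus stood apart from both other JinB8 libraries of its time point. TSP1 alone and CD3+CD28 differed by an SD of 0.175 at 1 h and 0.149 at 6 h. Libraries with and without the antibodies thus lay about as close as those that shared them, at 0.156 and 0.162. How far the antibodies activated the cells was not tested.

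**Figure D1:**
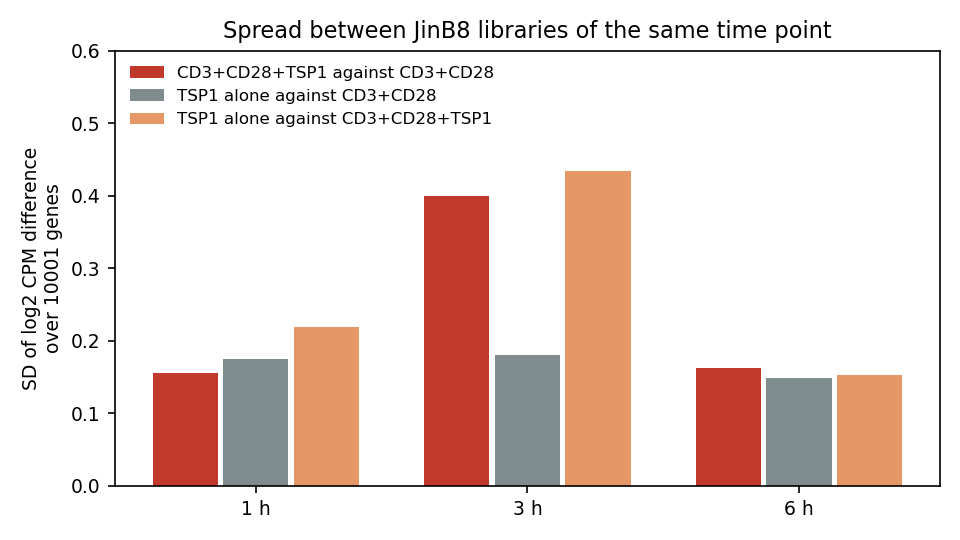
Bars give the SD of the log2 CPM difference over 10001 genes between 2 JinB8 libraries of the same time point (1 library per treatment, no error bars). Both bars that involve CD3+CD28+TSP1 at 3 h reach 0.400 and 0.434, and the remaining 7 lie between 0.149 and 0.219. Pairs with untreated cells at 1 h, between 0.149 and 0.275, are not drawn.

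The differences followed transcript length at 3 h and GC content at 1 h. At 3 h, with genes in 5 equal groups by transcript length, the median log2 difference went from -0.36 in the shortest group to 0.17 in the longest. Across 9980 genes the correlation with log2 length was r = 0.44 (rho = 0.51), where genes are not independent replicates. At 1 h it followed GC content instead, from -0.095 in the group with the lowest GC content to 0.179 in the highest (r = 0.65), and at 6 h the same relation was weaker (r = 0.25). Differences from the untreated library at 1 h, which they share, had r = -0.69 with GC content for CD3+CD28 and r = -0.32 for CD3+CD28+TSP1. What gave rise to these relations was not tested.

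**Figure D2:**
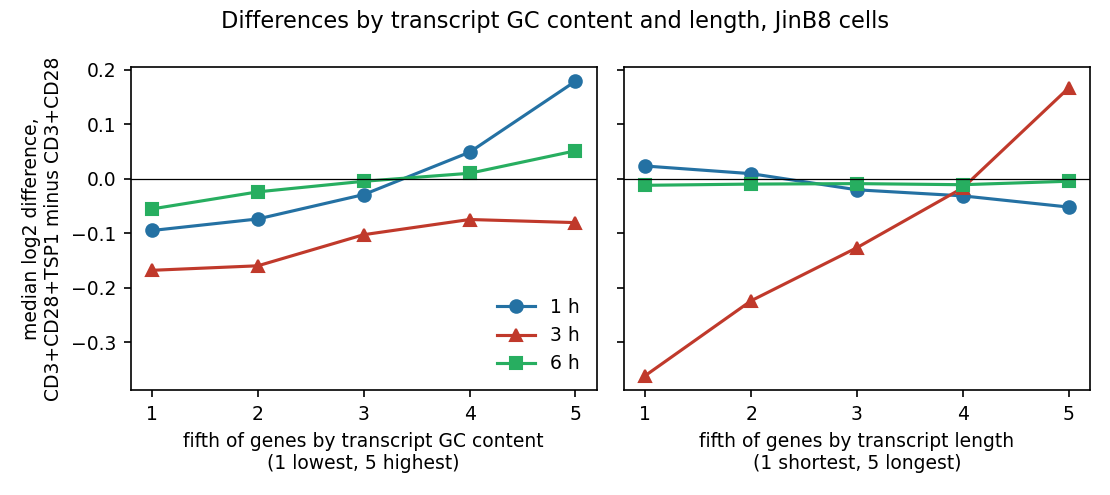
Lines join the median log2 CPM difference (CD3+CD28+TSP1 minus CD3+CD28) of genes in 5 equal groups by transcript GC content (left) or length (right), for the pairs at 1, 3 and 6 h. The 1 h line climbs with GC content to 0.179, and the 3 h line climbs with length from -0.36 to 0.17.

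None of the genes examined in the study passed the test, and 1 of them, CD69, was called by edgeR without a filter on low counts. The T cell activation marker CD69 was at 67.7, 34.6 and 8.14 CPM at 1, 3 and 6 h with CD3+CD28, and at 55.4, 22.1 and 5.41 CPM with CD3+CD28+TSP1. It was lower with TSP1 at each time point while the time course spanned the groups. The fitted log2 difference of CD69 was -0.49 ± 0.30 (SE), with an unadjusted p of 0.126 and a 95% interval of -1.13 to 0.16. Untreated JinB8 cells held 54.2 CPM of CD69 at 1 h, which was nearer to the library with TSP1. Cells given TSP1 alone, without the antibodies, held 59.7, 27.1 and 6.87 CPM of CD69 at 1, 3 and 6 h. The fall of CD69 over time was thus also seen without the antibodies. MCL1, which encodes an antiapoptotic BCL2 family protein, was at 510, 303 and 197 CPM without TSP1 and at 462, 226 and 186 CPM with it. MCL1 was also lower in each pair, with a log2 difference of -0.21 ± 0.13 and an interval of -0.49 to 0.07, and it had -0.11 without the 3 h pair.

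CD40LG, the CD40 ligand of helper T cells, was at 12.5, 14.2 and 15.7 CPM without TSP1 and at 12.1, 14.4 and 14.4 CPM with it. Its log2 difference was -0.05, with an interval of -0.26 to 0.16. The cytokine gene TNF was at 22.1, 18.4 and 10.7 CPM without TSP1 and at 26.1, 15.7 and 11.4 CPM with it, a log2 difference of 0.05 with an interval of -0.22 to 0.32. MYC was at 50.9, 91.9 and 176 CPM without TSP1 and at 54.9, 84.8 and 181 CPM with it. MYC thus had its highest level at 6 h in both groups, and its log2 difference was 0.01 with an interval of -0.22 to 0.24. With TSP1 alone, without the antibodies, MYC rose in the same way, at 48.3, 85.3 and 173 CPM. MYCN was at 8.04, 11.4 and 13.5 CPM without TSP1 and at 8.98, 9.75 and 12.2 CPM with it, a log2 difference of -0.07 with an interval of -0.36 to 0.22. MYCN was higher with TSP1 at 1 h and lower at 3 and 6 h. The antisense transcript MYCNOS, added to the description after its values were seen, had 3 to 7 counts per library and was not tested, and the immune checkpoint gene TIGIT had 0 to 2 counts.

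**Figure D3:**
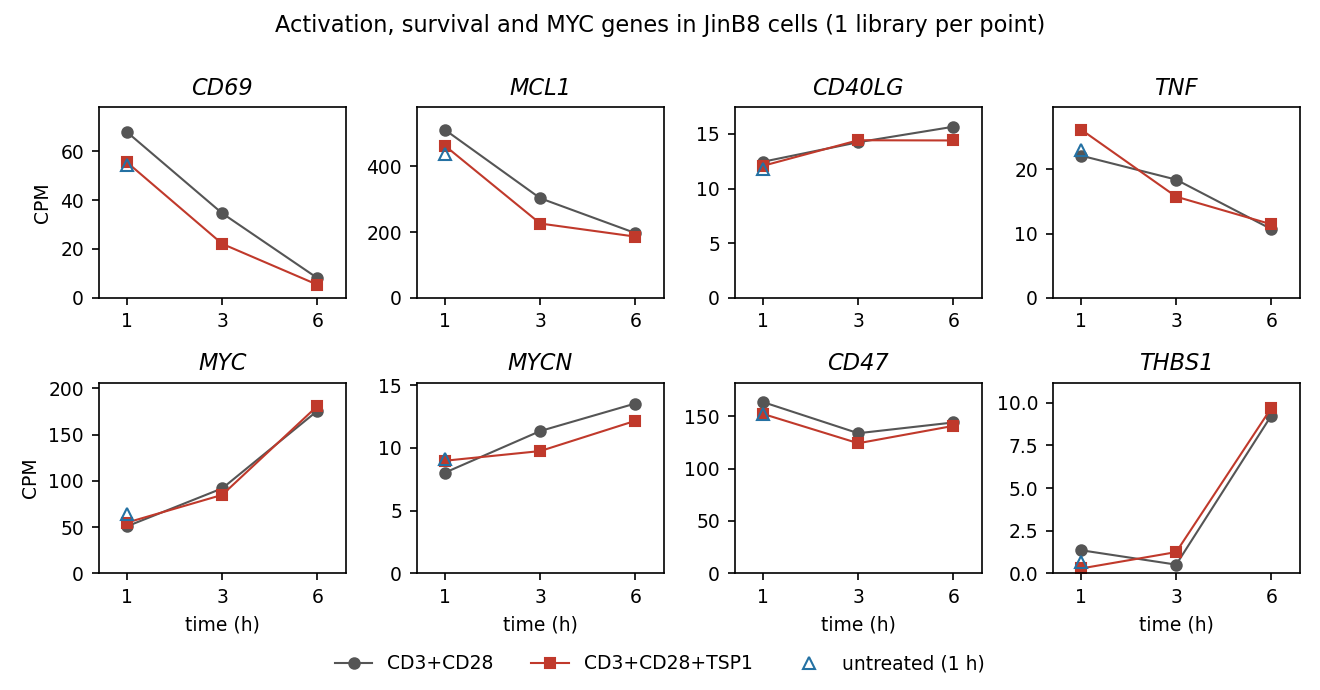
Points give CPM in single libraries of JinB8 cells at 1, 3 and 6 h for CD3+CD28 (circles), CD3+CD28+TSP1 (squares) and untreated cells at 1 h (triangle). CD69 and MCL1 are lower with TSP1 at each time point, and MYC and MYCN run close together in both groups.

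Of the 18 study genes tested, 0 were higher and 6 were lower in all 3 pairs, beside 13.8% and 18.3% of all genes. Their median log2 difference was -0.07 against -0.0051 over all genes. Besides CD69 and MCL1 the 6 included CD47, the translation factor gene EEF1A1 and the deubiquitinase gene YOD1. CD47 was at 164, 134 and 144 CPM without TSP1 and at 152, 124 and 141 CPM with it, a log2 difference of -0.08. EEF1A1 and YOD1 had log2 differences of -0.19 and -0.11, and without the 3 h pair -0.04 and -0.10. Of the remaining study genes, none had 1 sign in all pairs. MYCL and MAX of the MYC network, the interleukin-7 receptor gene IL7R and the transcription factor gene ETS1 had log2 differences of -0.12, -0.07, -0.11 and -0.05, and without the 3 h pair 0.07, 0.05, -0.04 and -0.02. RAG1, a recombinase gene of antigen receptor rearrangement, PREX1, the chemokine receptor gene CCR9 and the checkpoint gene PDCD1 had 0.11, 0.04, 0.13 and 0.17, and without the 3 h pair 0.20, 0.13, 0.06 and 0.55. PDCD1 peaked at 3 h in both groups, at 18.4 CPM without and 13.5 CPM with TSP1. ENTPD1, with 6 to 12 counts per library, was not tested.

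Among the receptors of TSP1 other than CD47, CD36 and the calcium channel subunit gene CACNA2D1 had 0 counts in all 6 libraries, which allows up to 0.156 CPM in the shallowest. Of 14 tested genes of the TSP1 and receptor list, 1 was higher and 4 were lower in all 3 pairs, beside 13.8% and 18.3% of all genes. Their median log2 difference was -0.06. The endocytic receptor gene LRP1 was at 7.24, 9.40 and 7.26 CPM without TSP1 and at 8.62, 21.1 and 8.79 CPM with it. Most of the LRP1 difference of 0.61 ± 0.22 came from 3 h, and without that pair it was 0.26 with an unadjusted p of 0.180. Its annotated transcript is 14923 bases long, in the longest of the 5 groups. The integrin genes ITGA6, ITGB1 and ITGAV were lower in each pair, with fitted log2 differences of -0.15, -0.20 and -0.12, or -0.09, -0.08 and -0.11 without the 3 h pair.

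THBS1, the gene of TSP1 itself, was at 1.35, 0.51 and 9.24 CPM without TSP1 and at 0.29, 1.25 and 9.68 CPM with it. The 6 h libraries of both groups were thus high and the groups overlapped, with a log2 difference of -0.14 ± 1.19. At 6 h the mesenchymal genes COL1A2 and LUM were also at their highest, with 26 and 4 counts without TSP1 and 40 and 21 with it, against 0 or 1 count at 1 and 3 h. The library of TSP1 alone at 6 h had 4 counts of THBS1 and 0 of COL1A2 and LUM. The part of mesenchymal RNA in the THBS1 level was not tested.

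Targets and regulators of TGF-beta signaling were described because TSP1 can activate the latent factor. Of 20 genes tested, 4 were higher and 2 were lower in all 3 pairs, beside 13.8% and 18.3% of all genes. The median log2 difference was 0.08, or -0.02 without the 3 h pair. The SMAD corepressor gene SKI was at 11.7, 24.1 and 9.10 CPM without TSP1 and at 12.01, 57.7 and 12.8 CPM with it. Its log2 difference was 0.67 ± 0.25 with the 3 h pair and 0.26 without it. SMURF1, a ubiquitin ligase of the pathway, had a log2 difference of 0.13 in both fits.

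Of 27 genes of the activation response that were tested, 0 had an unadjusted p below 0.05. In all 3 pairs 2 were higher and 3 were lower, beside 13.8% and 18.3% of all genes. The median log2 difference was -0.05 (0.04 without the 3 h pair). EGR1, an early growth response factor, was at 61.7, 28.1 and 4.13 CPM without TSP1 and at 64.2, 44.6 and 5.25 CPM with it. Its log2 difference was 0.37 ± 0.28, or 0.14 without the 3 h pair, and it was highest at 1 h in both groups. The orphan nuclear receptor gene NR4A3 was at 5.05, 3.15 and 1.19 CPM without TSP1 and at 4.57, 8.51 and 1.67 CPM with it. NR4A3 was thus highest at 1 h without TSP1 and at 3 h with it, and its log2 difference of 0.62 was 0.07 without the 3 h pair. The phosphatase gene DUSP1 had -0.18, or -0.04 without that pair. In the receptor complex and its proximal signaling, 1 of 18 genes was higher at an unadjusted p below 0.05, a share near the 5.22% of all genes. It was PLCG1, a phospholipase acting downstream of the receptor, at 185, 148 and 161 CPM without and 202, 192 and 173 CPM with TSP1. PTPRC, the CD45 phosphatase, was lower in each pair, with a log2 difference of -0.16, or -0.11 without the 3 h pair.

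Of 14 NF-kB genes, the subunit gene RELA had a log2 difference of 0.19 and the inhibitor of apoptosis gene BIRC3 one of -0.18, in opposite directions, with 0.15 and -0.08 without the 3 h pair, and the median of the list was 0.0034. Among 11 tested checkpoint and costimulatory genes the median was -0.06. CD96, an inhibitory receptor, was at 49.8, 35.4 and 23.97 CPM without TSP1 and at 46.4, 28.8 and 22.1 CPM with it. CD5 had 0.16, and the proapoptotic gene PMAIP1 of the BCL2 family -0.26, which were 0.09 and -0.07 without the 3 h pair. The MYC antagonist MNT and the MLX partner MLXIP had log2 differences of 0.23 and 0.46, or 0.20 and 0.12 without the 3 h pair. At 3 h MLXIP was at 42.4 CPM without and 86.5 CPM with TSP1.

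Genes of the G2 and M phases of the cell cycle had the same sign more often than genes overall. Of 22 genes tested, 13 were lower and 0 were higher in all 3 pairs, beside 18.3% and 13.8% of all genes. At an unadjusted p below 0.05, 9 were lower, beside 5.62% of all genes. Fitted log2 differences of the 22 ran from -0.30 to 0.40, so the largest in size was that of a member higher with TSP1. The median log2 difference was -0.17, or -0.06 without the 3 h pair. Without that pair 3 genes were lower at an unadjusted p below 0.05, beside 268 of 16327 genes in the same fit. The kinetochore motor gene CENPE was at 266, 221 and 142 CPM without TSP1 and at 237, 191 and 99.0 CPM with it. Its log2 difference was -0.30 ± 0.08 (unadjusted p = 0.00366) and -0.34 without the 3 h pair. The cyclin gene CCNA2 was at 199, 134 and 103 CPM without TSP1 and at 176, 91.6 and 96.0 CPM with it, a log2 difference of -0.27, or -0.14 without the 3 h pair. The spindle checkpoint kinase gene TTK and the hyaluronan-mediated motility receptor gene HMMR had -0.24 and -0.30, or -0.14 and -0.15 without the 3 h pair.

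The median GC content of the G2 and M phase transcripts was 42.6% against 48.5% over all genes tested. A fit with transcript GC content and length as library-wise offsets was added after the data were seen. It left 6 of the 22 lower at an unadjusted p below 0.05, beside 533 of 16268 genes, with a median of -0.13. With the same offsets and without the 3 h pair, 1 was left, beside 173 of 16268 genes, and the median was -0.04. In Jurkat cells the median was -0.05. At 1 h the untreated JinB8 library was nearer to the library with TSP1 than to that without it for 19 of the 22 genes, against 63.9% of all genes tested and 70.2% of those at a log2 CPM of 3 or more. Of 24 genes of DNA replication and S phase, 1 was higher and 7 were lower in all 3 pairs, beside 13.8% and 18.3% of all genes. At an unadjusted p below 0.05, 5 were lower, beside 5.62% of all genes, and 0 were without the 3 h pair. The median was -0.11, or -0.0082 without that pair. Among the 7 were the cyclin gene CCNE2 and the replication factor gene CDC45, at -0.24 and -0.18, or -0.12 and -0.08 without the 3 h pair.

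Promoters of the G2 and M phase genes are shown because the genes had one sign more often than others and many are known to carry a short element, the cell cycle genes homology region. It was searched as TTTGAA on both strands in the 250 bases before to 50 after each start site, in RefSeq promoters of GRCh38.p14. These exact letters were present in 11 of 17 promoters of the list with an entry (64.7%). They were present in 15.4% of all 27305 promoters and 9.89% of promoters of the genes tested. The share was 7 of 11 among genes lower in all 3 pairs and 4 of 6 among the others. A match is a description of these letters only. Variant forms of the element were not searched, so a promoter without a match may still carry it. HMMR (chr5:163460382-163460681, plus strand) held 2 adjacent matches, given in capitals, and CCNA2 (chr4:121823834-121824133, minus strand) held none:
HMMR: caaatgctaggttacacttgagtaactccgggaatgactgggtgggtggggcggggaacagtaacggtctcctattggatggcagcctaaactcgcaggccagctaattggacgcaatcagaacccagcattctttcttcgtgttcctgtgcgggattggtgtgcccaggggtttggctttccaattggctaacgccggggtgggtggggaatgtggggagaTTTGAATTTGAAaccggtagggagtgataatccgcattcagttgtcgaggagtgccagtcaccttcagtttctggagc
CCNA2: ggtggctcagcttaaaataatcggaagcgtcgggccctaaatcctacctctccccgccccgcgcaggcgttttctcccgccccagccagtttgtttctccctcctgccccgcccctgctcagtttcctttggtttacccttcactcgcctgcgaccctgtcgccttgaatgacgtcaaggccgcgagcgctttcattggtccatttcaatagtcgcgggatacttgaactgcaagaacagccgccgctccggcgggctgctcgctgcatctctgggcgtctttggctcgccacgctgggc

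Of the genes higher with TSP1 in all pairs and with log2 CPM averaging 1 or more, 12 were taken by the smallest p. AEBP1, a transcriptional repressor gene, was at 52.5, 53.9 and 55.9 CPM without TSP1 and at 65.0, 80.3 and 65.5 CPM with it. The groups of AEBP1 did not overlap, with a log2 difference of 0.37 ± 0.09 and 0.27 without the 3 h pair. FMNL1, a formin that acts on actin, was at 42.5, 50.6 and 46.3 CPM without TSP1 and at 50.2, 71.6 and 53.1 CPM with it. SMPD4, a neutral sphingomyelinase gene, had the narrowest interval of the 12, with a log2 difference of 0.20 (0.08 to 0.33).

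ZNF707, the tenascin gene TNXB and the cation channel gene TRPV1 had log2 differences of 0.58, 0.72 and 0.51, at levels below 15 CPM. The antisense RNA ARRDC3-AS1 was at 0.92, 0.98 and 1.36 CPM without TSP1 and at 1.71, 2.44 and 2.401 CPM with it, without overlap and with a log2 difference of 1.01 ± 0.22. In Jurkat cells the difference of ARRDC3-AS1 was -0.09, and the test of the difference between lines gave an adjusted p of 0.966. The other 4 were low noncoding or unprocessed loci, AC092279.2, AL133216.2, PDC-AS1 and AC007496.3, with log2 differences between 0.78 and 1.15, or between 0.59 and 0.91 without the 3 h pair. Strand use in counting is not given in the sources used here, so reads of antisense genes and their partners may not be told apart.

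The 12 genes lower with TSP1 were taken by the same rule. RRM2B, a ribonucleotide reductase subunit induced by p53, was at 41.7, 34.1 and 30.5 CPM without TSP1 and at 32.6, 27.7 and 26.2 CPM with it. Its log2 difference was -0.29 ± 0.07 and -0.29 without the 3 h pair. RAD51AP1, which acts in homologous recombination, was at 69.1, 43.4 and 29.1 CPM without TSP1 and at 58.4, 34.4 and 23.7 CPM with it. For both genes the pairs ran in parallel through the time course and the groups overlapped across time points. The kinetochore gene NUF2 had -0.33, or -0.19 without the 3 h pair, and the mitotic kinesin gene KIF14 had -0.25 in both fits. The tRNA-modifying enzyme gene ALKBH8, the zinc finger gene ZNF675, the mitochondrial calcium uptake gene MICU2, the sterol synthesis scaffold gene ERG28, CCDC152 and MORC3 lay between -0.34 and -0.23. Of these, ERG28 was at -0.21 without the 3 h pair.

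The noncoding loci PWAR5 and AC239868.1 had -0.52 and -0.61. Of the 12 lower genes, 10 lay in the lower 2 of the 5 groups by GC content. So did 5 of the 12 higher genes and 5714 of the 16268 tested genes with a value. The median GC content was 37.7% for the 12 lower genes, against 53.5% for the 12 higher genes. Among all 917 lower genes at an unadjusted p below 0.05 the median was 40.2%, and among the 853 higher it was 53.1%. With GC content and length as offsets, RRM2B had -0.22, RAD51AP1 -0.14, AEBP1 0.24 and FMNL1 0.18, with the same signs. Untreated cells at 1 h held 33.3 CPM of RRM2B, 59.8 of RAD51AP1 and 63.9 of AEBP1, each nearer to the library with TSP1.

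**Figure D4:**
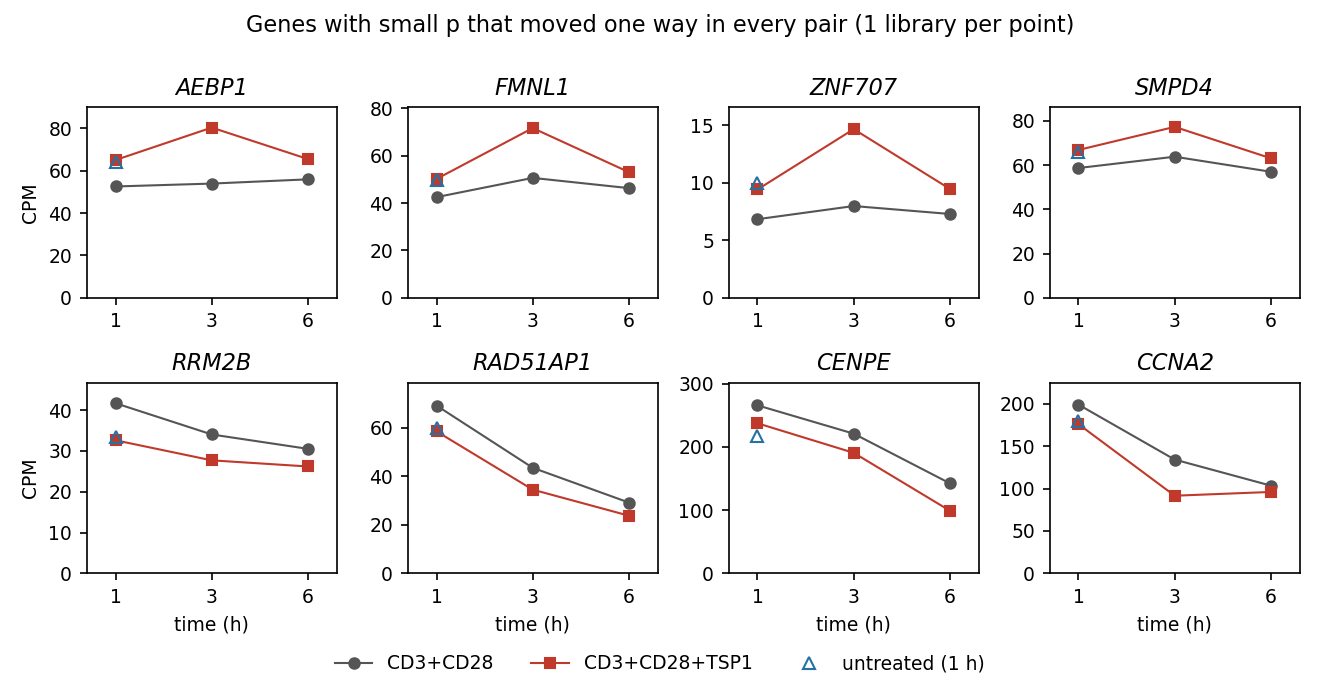
Points give CPM in single JinB8 libraries at 1, 3 and 6 h for CD3+CD28 (circles), CD3+CD28+TSP1 (squares) and untreated cells at 1 h (triangle). The upper 4 genes are higher and the lower 4 genes are lower with TSP1 in all 3 pairs, and ZNF707 has its largest gap at 3 h, at 7.99 CPM without and 14.7 CPM with TSP1.

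Without the 3 h pair, and among higher genes with log2 CPM averaging 1 or more, the smallest p belonged to POGLUT2, a protein glycosyltransferase gene, and ST6GALNAC6, a sialyltransferase gene, each with an adjusted p of 0.996. ST6GALNAC6 was at 10.1 and 12.4 CPM at 1 and 6 h without TSP1 and at 16.5 and 17.9 CPM with it, but at 13.5 and 7.93 CPM at 3 h. POGLUT2 had a log2 difference of 0.77 without the 3 h pair and 0.27 with it, and at 3 h its direction was opposite as well. AGAP5, the readthrough locus RTEL1-TNFRSF6B and the T cell receptor segment TRBV12-3 had 0.68, 0.54 and 0.27 without the 3 h pair. With that pair they had 0.51, 0.38 and 0.02. At 3 h TRBV12-3 was lower with TSP1, at 234 CPM without and 166 CPM with it. The histone gene H3C14 was at 11.7 and 80.1 CPM at 1 and 6 h without TSP1 and at 87.5 and 136 CPM with it. At 3 h, where it was highest in both groups, H3C14 was at 235 CPM without and 228 CPM with TSP1. At 1 h untreated cells held 121 CPM of H3C14 and cells with TSP1 alone 39.5 CPM.

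The 8 lower genes of that fit included RRM2B, RAD51AP1 and ZNF675, with the synaptonemal complex gene SYCP2 at -0.29 and the RNA MALINC1 at -0.74. AP001273.2 was at 4.46, 1.78 and 4.40 CPM without TSP1 and at 1.36, 0.73 and 1.12 CPM with it. The readthrough locus PDCD6-AHRR was at 3.47, 2.00 and 3.99 CPM without TSP1 and at 0.14, 5.00 and 0.00 CPM with it, and its reads overlap those of its component genes. The mitochondrial ribosomal RNA MT-RNR1 was at 413, 110 and 768 CPM without TSP1 and at 314, 125 and 96.1 CPM with it, so its difference came mainly from 1 library.

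Of the genes whose log2 CPM averaged 3 or more, the 6 higher and 6 lower with the largest differences at 3 h were taken by size. POLR2A, the largest subunit of RNA polymerase II, was at 63.3 CPM without and 408 CPM with TSP1 at 3 h. At 1 h it was at 83.3 and 89.7 CPM, and at 6 h the levels were 82.6 and 89.3 CPM. The histone methyltransferase gene KMT2D was at 48.9 and 280 CPM at 3 h, and the splicing factor gene SRRM2 at 144 and 681 CPM. IGSF9B was at 27.4 and 122 CPM, AC106886.5 at 16.6 and 92.0 CPM, and CU633967.1 at 3.12 and 28.5 CPM. Without the 3 h pair, the log2 differences of POLR2A, KMT2D and SRRM2 were 0.11, 0.22 and 0.09, from 1.14, 1.14 and 0.93. Of 215 genes more than 2-fold higher at 3 h and at a log2 CPM of at least 3, 177 were protein-coding and 27 lncRNA genes. Their median transcript length was 6655 bases against 3364.5 for the 10001 genes, and 1 and 0 of them were more than 2-fold higher at 1 and 6 h.

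Among the same 10001 genes, 16 were more than 2-fold lower at 3 h and had a median transcript length of 396 bases. The histone gene H4C15 was at 14.6 CPM without and 3.33 CPM with TSP1, and the small nucleolar RNA SNORD3D at 42.1 and 15.2 CPM. AL355075.4 was at 113 and 44.4 CPM. FP236383.4 was at 71.5 and 28.2 CPM, and 2 near-identical loci, FP236383.5 and FP671120.6, had the same values, so their reads could not be assigned to 1 copy.

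Of 13 mitochondrially encoded mRNAs, 10 were higher at 3 h, with a median log2 difference of 0.99, and the median was -0.02 without the 3 h pair. MT-CYB, a subunit of complex III, was at 83.2 CPM without and 285 CPM with TSP1 at 3 h, against 99.1 and 99.5 CPM at 1 h and 90.4 and 98.7 CPM at 6 h. The complex I genes MT-ND1, MT-ND4 and MT-ND5 had the same pattern, with fitted log2 differences of 0.51, 0.49 and 0.71 that fell to between 0.02 and 0.06 without the 3 h pair. Fitted differences of the 13 ran from -0.37 to 0.71. In all 3 pairs 1 was higher and 2 were lower, beside 13.8% and 18.3% of all genes. MT-ND3, also of complex I, had -0.39 in the fit without a low-count filter. The nuclear-retained RNAs MALAT1 and NEAT1 were at 2825 and 75.0 CPM without TSP1 at 3 h and at 6064 and 182 CPM with it. The snoRNA host gene ZFAS1 was lower at 3 h, at 136 and 93.4 CPM.

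All 74 cytosolic ribosomal protein genes were lower at 3 h, with a median log2 difference of -0.56, and the median was -0.03 without the 3 h pair. Of the 74, 36 were lower in all 3 pairs and 10 at an unadjusted p below 0.05, beside 18.3% and 5.62% of all genes, among them RPL21, RPL26, RPL34 and RPL35A, and 0 remained below it without the 3 h pair. RPL26 was at 1229 CPM without and 740 CPM with TSP1 at 3 h. All 66 nuclear genes of oxidative phosphorylation were lower at 3 h too, with a median of -0.48 at 3 h and -0.0037 without that pair, and NDUFA2 and NDUFB1 of complex I had fitted differences of -0.24 and -0.26, or -0.09 and -0.13 without the pair. The median transcript lengths of the 2 groups were 827 and 760.5 bases. Of 50 replication-dependent histone genes tested, 45 were higher at 1 h, 0 at 3 h and 15 at 6 h. Over all 16327 genes tested, 7927, 7541 and 8010 were higher. The histone transcripts had a median GC content of 58.0% and a median length of 486 bases. Heat shock chaperones, with HSPD1 at -0.19, had a median of -0.09 and of -0.0067 without the 3 h pair.

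**Figure D5:**
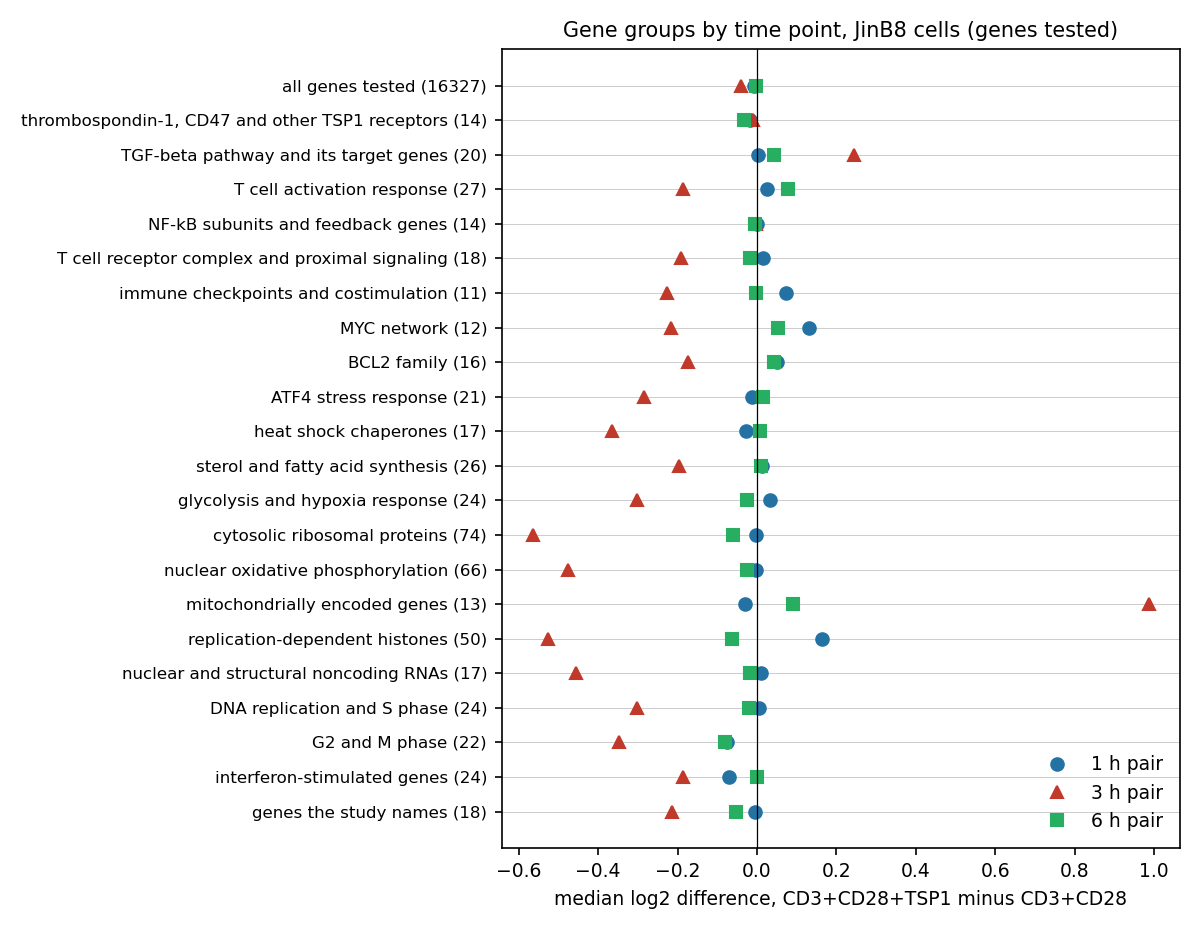
Points give the median log2 CPM difference (CD3+CD28+TSP1 minus CD3+CD28) of each gene group at 1, 3 and 6 h, with the number of genes tested in parentheses. The 3 h triangles spread from -0.56 (ribosomal proteins) to 0.99 (mitochondrially encoded genes), the 1 h points lie between -0.08 and 0.16 (histones), and the 6 h points between -0.08 and 0.09.

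Of 21 genes of the ATF4 stress response 0 had an unadjusted p below 0.05, and the median log2 difference was -0.06, or 0.03 without the 3 h pair. Of 24 genes of glycolysis and hypoxia 0 did, with medians of -0.08 and 0.02. Of 26 sterol and fatty acid genes 1 was higher and 1 lower at that p, beside 5.22% and 5.62% of all genes. SREBF2, the master regulator of sterol synthesis, was at 22.7, 24.6 and 28.2 CPM without TSP1 and at 28.9, 38.5 and 28.3 CPM with it, and FDPS, a farnesyl diphosphate synthase, had -0.21, or -0.09 without the 3 h pair. Of 24 interferon-stimulated genes 8 were lower in all 3 pairs and 2 higher, beside 18.3% and 13.8% of all genes. The list median was -0.10, or -0.01 without the 3 h pair. OAS3 had a log2 difference of 0.31, or 0.03 without that pair. Of 16 BCL2 family genes 1, PMAIP1, was lower at an unadjusted p below 0.05, beside 5.62% of all genes.

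The effect of TSP1 on activated cells was not shown to differ between the lines. The interaction of line and TSP1 was called for 0 of 16327 genes (0%) by edgeR, with 393 at an unadjusted p below 0.05, and DESeq2 and limma voom called 0 with 260 and 378. In Jurkat cells the same contrast also called 0 genes, with 366 at an unadjusted p below 0.05. CD69 in Jurkat cells was at 455, 264 and 34.5 CPM without TSP1 and at 365, 273 and 56.1 CPM with it, a log2 difference of 0.09. The difference between the lines in CD69 was -0.58 ± 0.40 with an unadjusted p of 0.170. For RRM2B the Jurkat difference was -0.06 and the difference between the lines was -0.23 ± 0.10 with an unadjusted p of 0.0413 and an adjusted p of 0.966.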

How the data were processed

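RNA was sequenced from 20 libraries, and 6 form the main comparison. The submitters' processing notes and the study's methods name Cutadapt 1.18 for trimming by the authors, STAR 2.4.2a for alignment against GRCh38, and RSEM 1.3.3 for quantification on GENCODE version 36. The deposited gene file holds RSEM expected counts for 60719 genes, not normalized. The file has 2 columns of no sample, which were not used, and the deposited isoform file was not used here. Expected counts were rounded for edgeR 4.0.16 and DESeq2 1.42.0 and kept unrounded for limma 3.58.1 in R 4.3.3.

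The low-count filter was filterByExpr with the line as group (minimum count 10, total 15), which left 16327 genes to test. Libraries were scaled by TMM factors. In 1 quasi-likelihood model of all 20 libraries, each treatment within a line had its own coefficient and each line its own terms for 3 and 6 h, so that libraries were paired by time point. Same-time libraries deviated together from their group means (r = 0.86, 0.50 and 0.88 at 1, 3 and 6 h). With 3 pairs an exact sign-flip test cannot go below p = 0.25. Benjamini-Hochberg adjustment ran over every tested gene, at a threshold of 0.05. CPM are TMM-scaled, and differences within a time point use log2(CPM + 0.5), which understates differences of low genes. The model was tested on simulated data, and the outcome is not reported or used here. Transcript length, GC content and biotype came from GENCODE version 44 for 16268 of the 16327 genes.

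Named genes are those of the study, the 12 higher and 12 lower by the smallest p with 1 direction in all pairs, 8 and 8 without the 3 h pair, 6 and 6 by size at 3 h among genes averaging a log2 CPM of 3 or more, and up to 4 members of each of 27 gene lists. Some genes these rules name are not reported here. Members and lists were chosen with earlier results of these data known. Alternative settings comprised upper-quartile scaling, DESeq2, quantile-normalized limma voom, other low-count filters, fewer libraries, no time term, each library left out, a pseudocount of 2 CPM and, added after the data were seen, GC and length offsets.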

Additional observations from a re-analysis of the deposited data

How the results depend on the processing

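The count of 0 called genes held under DESeq2, limma voom, upper-quartile factors, a minimum of 1 CPM in every library, JinB8 libraries alone, the offsets for GC content and length, and each library left out. With no filter on low counts, 399 genes were called and the interaction gave 137. The 399 included CD69, with a log2 difference of -0.50 and an edgeR adjusted p of 0.000286. Of the 399, 251 differed by more than 2-fold at 3 h in the same direction and 49 had an unadjusted p below 0.05 without the 3 h pair in the filtered fit. The 6 libraries alone, with time point as replicate block, called 1 gene, RN7SL342P, a signal recognition particle RNA copy whose 3 h libraries had 0 counts and whose reads near-identical copies share. Without the replicate block (no time term, 6 libraries), 0 genes were called. The interaction without the 3 h libraries called 1 gene, RN7SL466P, another such copy, with 0 to 60 counts in JinB8 libraries. The causes were not tested.

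The 1770 genes at an unadjusted p below 0.05 became 496 without the 3 h pair, 2894 without a filter, 811 in JinB8 libraries alone, and 579 with and 82 without the replicate block in the 6 libraries. They became 347 with offsets and no 3 h pair. Leaving out single libraries gave 474 to 3486. The lowest came without CD3+CD28+TSP1 at 3 h, followed by 489 without CD3+CD28 at 3 h, and the highest without CD3+CD28+TSP1 at 1 h, with 2695 without that at 6 h, 1656 without CD3+CD28 at 6 h and 1177 without CD3+CD28 at 1 h. The share of higher genes went from 48.2% to 61.0% with upper-quartile factors, 64.6% in JinB8 libraries alone, 73.4% and 85.4% in the 6 libraries with and without the block, and 60.3% with the offsets. With a pseudocount of 2 CPM, 21, 342 and 31 genes passed 2-fold at 1, 3 and 6 h.

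Directions changed under at least 1 alternative for 24 of the 105 genes followed, none of which was called in the main test. Log2 differences that changed sign with the offsets and without the 3 h pair were CD47 at 0.0045, MYCL at 0.0068, MAX at 0.059, EEF1A1 at 0.0058, IL7R at 0.0034, ETS1 at 0.022, AC106886.5 at -0.11, FP236383.4 at 0.30, PMAIP1 at 0.013 and OAS3 at -0.0090. Log2 differences that changed sign without a low-count filter were MYC at -0.0032. Log2 differences that changed sign with the GC and length offsets were MYC at -0.0069, CD40LG at 0.045 and PREX1 at -0.12. Log2 differences that changed sign without the 3 h pair were MYCL at 0.069, MAX at 0.048, AC106886.5 at -0.042, AL355075.4 at 0.019, FP236383.4 at 0.33 and NEAT1 at -0.0013. Log2 differences that changed sign by limma voom were EEF1A1 at 0.00016, PDCD1 at -0.016 and ETS1 at 0.072. Log2 differences that changed sign in the 6 libraries with no replicate block were PDCD1 at -0.087 and THBS1 at 0.022. With single libraries left out, the ranges that crossed 0 were those of MYC (-0.037 to 0.067), MYCL (-0.28 to 0.051), MAX (-0.14 to 0.047), CD40LG (-0.074 to 0.0012), TNF (-0.061 to 0.17), PDCD1 (-0.12 to 0.48), RAG1 (-0.0095 to 0.22), PREX1 (-0.033 to 0.12), THBS1 (-1.20 to 0.35), POGLUT2 (-0.033 to 0.71), ST6GALNAC6 (-0.013 to 0.54), TRBV12-3 (-0.092 to 0.23), MT-RNR1 (-2.20 to 0.10), FP236383.4 (-0.52 to 0.23), NEAT1 (-0.018 to 0.76) and EGR1 (-0.0400 to 0.65).

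Depth limits genes such as TIGIT and MYCNOS, at 0 to 7 counts per library, and each time point held 1 library per treatment, so a difference at 1 time point has no replicate.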
